A study of Mus musculus with 4 samples.

Results

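Disulfide bonds are put into secreted proteins in the endoplasmic reticulum (ER) by a relay of thiol enzymes, and 10 genes of this relay were followed in a mouse plasmacytoma line after depletion of Ell2. They are Txndc11, Txndc5, Pdia4, Pdia3, P4hb, Pdia6 and Erp44 of the protein disulfide isomerase (PDI) family, the ER oxidases Ero1l and Ero1lb, and the ER peroxiredoxin Prdx4. They were taken by gene symbol, and all 10 were found among the 22722 genes counted in each library. All 10 also had enough counts to be tested, as did 11027 genes in all.

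The first group, Ell2-KD, was 2 cultures of MPC11 transduced with a lentiviral pLKO.1 vector carrying a single short hairpin against Ell2, which encodes an elongation factor of RNA polymerase II. The other, shGFP, was 2 cultures with the same vector carrying a hairpin against GFP, a sequence mouse cells lack. MPC11 is a plasmacytoma line that makes and secretes immunoglobulin. Both groups were exposed to virus for 18 h, kept under puromycin for 72 h and expanded for another 72 h before harvest. The cells were sequenced in bulk, and Ell2 levels and the form of immunoglobulin message had been checked before sequencing, so the low Ell2 level was a condition of use. The replicates are labelled biological, but separate transduction of each is not stated, and a p-value here covers only the spread among these 4 cultures.

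PDI enzymes carry thioredoxin-like domains whose paired cysteines pass disulfides to folding proteins or rearrange wrong ones. The reduced enzyme is reoxidised by ERO1, which hands the electrons to oxygen and yields hydrogen peroxide, or by PRDX4, which uses that peroxide. An antibody-secreting cell depends on this relay because each immunoglobulin holds many disulfides, and the J chain and IgM or IgA polymers are joined through further ones. Several of these genes are induced in the unfolded protein response, the ER stress pathway of the sensors IRE1 (with XBP1), ATF6 and PERK.

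The libraries held 13914488 and 3496471 counts for Ell2-KD replicates 1 and 2, against 8323915 and 5088789 for shGFP replicates 1 and 2, so depth varied most within Ell2-KD. Ell2 had 1238 and 394 counts in Ell2-KD, against 7864 and 5019 in shGFP (log2 change -3.25 ± 0.23, SE; edgeR adjusted p = 0.00032). The 10 plasma cell markers, of which 9 were tested, summed to 17569 and 13833 CPM (counts scaled to library size) in Ell2-KD, against 21630 and 16616 in shGFP. The sum was carried by Igj and Xbp1, and single markers are given with the results. Cd79a, a chain of the B cell receptor, was nearly absent, with 2 and 1 counts in Ell2-KD and 0 in both shGFP libraries. Markers of other cell types were scarce. Their sums stayed at or below 6.58 CPM for 10 T and NK cell genes, 5.72 for 10 myeloid genes and 20.9 for 7 erythroid and megakaryocyte genes. Stromal and epithelial genes summed to between 460 and 636 CPM, nearly all of it from Epcam (6259 and 2024 counts in Ell2-KD, 4092 and 3171 in shGFP).

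The promoters of these genes are shown where they hold an element of the unfolded protein response, because genes of the relay are known targets of that pathway. Each window runs from 250 bases before to 50 bases after an annotated transcript start, 5′ to 3′ on the gene's strand, from RefSeq on build GRCm38.p6. Capitals mark either the core of the XBP1 and ATF6 element (UPRE core, TGACGTG) or the ER stress element (ERSE, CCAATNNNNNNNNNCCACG), each searched on both strands. The windows are Txndc11 at chr16:11134483-11134782 (minus strand), Txndc5 at chr13:38527865-38528164 (minus strand), Pdia6 at chr12:17266339-17266638 (plus strand) and Ero1lb at chr13:12565633-12565932 (plus strand).
Txndc11: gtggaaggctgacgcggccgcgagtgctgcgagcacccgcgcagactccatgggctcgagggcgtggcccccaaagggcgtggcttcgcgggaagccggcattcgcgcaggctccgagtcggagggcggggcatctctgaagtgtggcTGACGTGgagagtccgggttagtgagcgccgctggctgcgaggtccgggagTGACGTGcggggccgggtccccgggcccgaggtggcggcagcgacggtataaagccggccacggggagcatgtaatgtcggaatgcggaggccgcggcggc
Txndc5: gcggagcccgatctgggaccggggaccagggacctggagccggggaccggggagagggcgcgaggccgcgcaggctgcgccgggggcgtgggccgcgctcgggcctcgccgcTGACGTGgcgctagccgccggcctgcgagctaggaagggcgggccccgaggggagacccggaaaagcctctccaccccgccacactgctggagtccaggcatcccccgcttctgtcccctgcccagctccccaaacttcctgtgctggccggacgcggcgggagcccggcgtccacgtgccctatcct
Pdia6: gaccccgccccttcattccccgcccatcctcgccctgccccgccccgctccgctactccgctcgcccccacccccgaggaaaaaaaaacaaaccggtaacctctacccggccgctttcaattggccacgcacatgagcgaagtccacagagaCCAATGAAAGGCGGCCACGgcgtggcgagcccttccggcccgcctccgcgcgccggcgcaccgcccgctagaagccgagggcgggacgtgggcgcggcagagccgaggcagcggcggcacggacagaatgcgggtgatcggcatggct
Ero1lb: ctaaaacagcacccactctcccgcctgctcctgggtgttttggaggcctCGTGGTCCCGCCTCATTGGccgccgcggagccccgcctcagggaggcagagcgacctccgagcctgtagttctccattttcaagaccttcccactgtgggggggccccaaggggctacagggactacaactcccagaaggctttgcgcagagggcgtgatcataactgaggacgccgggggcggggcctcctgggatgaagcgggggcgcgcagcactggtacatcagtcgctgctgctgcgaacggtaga

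The UPRE core stood in the promoter windows of 2 of the 10 genes, Txndc11 and Txndc5, and of 2.22% of the 27025 genes with a window. In Txndc11 it occurred at 102 and 51 bases before the start of 1 of its 2 windows, and in Txndc5 at 138 bases before the start of 1 of its 3 windows. The ERSE stood in 2 of the 10, Pdia6 at 98 and Ero1lb, on the opposite strand, at 201 bases before the start, and in 0.137% of all genes. A match shows only that these letters are there. Txndc11 and Txndc5 also had the lowest log2 changes of the 10, but the link was looked at after their values were seen. Of 303 tested genes with a UPRE core in a window, 142 had a negative change, and the median was 0.032. Of 8425 tested genes with a window and no core, 4209 had a negative change, and the median was 0.00054. Tested genes without a matched window were not counted.

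Txndc11, Txndc5 and Pdia4 had the 3 lowest log2 changes of the 10 after Ell2 depletion, but not beyond the test. The fitted level was 2.07-fold lower in Ell2-KD for Txndc11, 1.73-fold for Txndc5 and 1.48-fold for Pdia4. None of the 10 passed the test over all genes, which 5 genes (0.0453% of those tested) did, 0.0363% lower and 0.00907% higher in Ell2-KD. At an unadjusted p under 0.05, edgeR gave these 3 genes, all lower, and DESeq2 also gave 3. Across all genes, edgeR gave 5.82% in either direction, 3.26% lower and 2.57% higher, and DESeq2 gave 6.25%. DESeq2 called 0 of the 10 at an adjusted p under 0.05, and 0.443% of all genes. In bulk RNA, fewer cells with a transcript and less of it per cell cannot be told apart.

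The log2 changes of plasma cell markers had the same sign as those of most of these genes. All 9 tested had a negative log2 change (50.1% of all tested genes), with a median of -0.39. In 8 both depleted libraries lay below both controls (18.5% of all tested genes). None passed in edgeR, where 4 had an unadjusted p under 0.05 (5.82% of all tested genes, 3.26% lower in Ell2-KD). DESeq2 called Tnfrsf17 and Fkbp11 (0.443% of all genes), with 4 at an unadjusted p under 0.05 (6.25% of all genes). Tnfrsf17, the survival receptor BCMA, had 18 and 1 counts in Ell2-KD and 159 and 126 in shGFP, and the prolyl isomerase gene Fkbp11 had 32.1 and 21.1 CPM in Ell2-KD and 76.1 and 75.8 CPM in shGFP. Sdc1, the surface marker CD138, had 478 and 347 CPM in Ell2-KD and 784 and 648 CPM in shGFP, and the coactivator Pou2af1 had 622 and 476 CPM in Ell2-KD and 1125 and 905 CPM in shGFP. Xbp1 was the only 1 of the 9 whose groups overlapped. These markers were singled out after their values were seen, and their part in the results was not tested.

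Txndc5, a PDI family member with 3 thioredoxin-like domains in mammals that is abundant in plasma cells, had 18881 and 3786 counts in Ell2-KD replicates 1 and 2, against 17824 and 10584 in shGFP. Scaled to the libraries, this was 1339 and 1108 CPM in Ell2-KD and 2125 and 2100 CPM in shGFP. Both depleted libraries lay well below both controls, and the controls differed from each other by only 1.01-fold. The log2 change was -0.79 ± 0.19 (SE), with a 95% interval of -1.20 to -0.38 (edgeR, unadjusted p = 0.0014, adjusted p = 0.45). With 1 library left out it ranged from -0.93 to -0.66. Its exons overlap those of Bmp6 and of an antisense transcript on the opposite strand. Bmp6 had 33 and 23 counts in Ell2-KD and 102 and 88 in shGFP, and the part of shared reads was not tested.

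Txndc11, a membrane-anchored thioredoxin-like protein known in human cells to bind dual oxidases and the ER degradation factor EDEM2, had 236 and 347 CPM in Ell2-KD, against 439 and 765 CPM in shGFP. The groups did not overlap, but the controls differed from each other by 1.74-fold and the depleted libraries by 1.47-fold, the widest spreads among the 10. The log2 change was -1.05 ± 0.29 (SE), with a 95% interval of -1.70 to -0.40 (edgeR, unadjusted p = 0.0047, adjusted p = 0.57). Without shGFP replicate 2 it was -0.59, and without shGFP replicate 1 it was -1.38. Its exons share 75 bases with Snn on the opposite strand, and Snn had more counts in Ell2-KD (1117 and 678) than in shGFP (215 and 179).

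Pdia4 (ERp72), an isomerase found in a chaperone complex with BiP, had 1335 and 936 CPM in Ell2-KD and 1934 and 1420 CPM in shGFP. The higher depleted library lay just below the lower control, so the separation was narrow. The log2 change was -0.56 ± 0.23 (SE), with a 95% interval of -1.07 to -0.053 (edgeR, unadjusted p = 0.033, adjusted p = 0.81). It was -0.31 without shGFP replicate 1, -0.33 without Ell2-KD replicate 2 and -0.84 without Ell2-KD replicate 1.

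**Figure D1:**
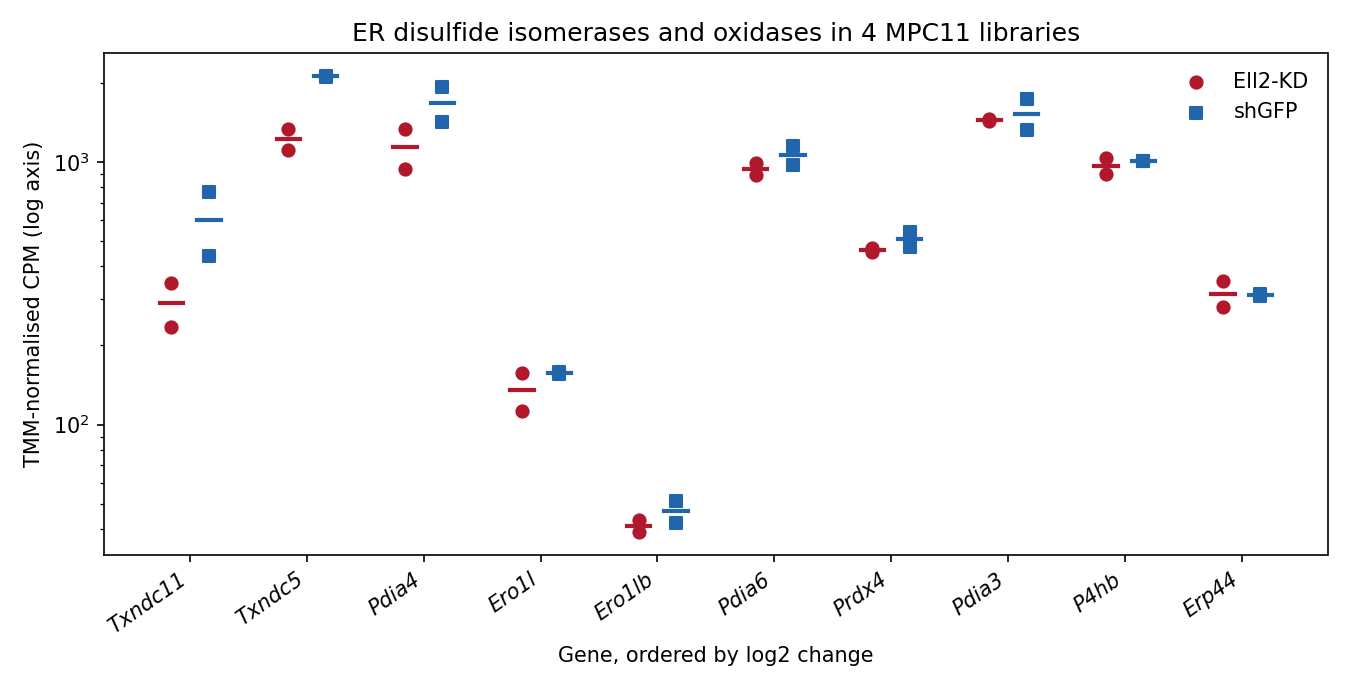
TMM-normalised CPM (log axis) of each of the 10 genes in the 2 Ell2-KD libraries (red circles, left) and the 2 shGFP libraries (blue squares, right), with bars at the group means. For Txndc11, Txndc5, Pdia4 and, narrowly, Prdx4 both Ell2-KD libraries lie below both controls, as for 18.5% of all tested genes. For the other 6 of the 10 genes the groups overlap.

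The general isomerases overlapped between the groups. P4hb, the founding PDI and also a subunit of prolyl 4-hydroxylase, had 1036 and 898 CPM in Ell2-KD and 1007 and 1010 CPM in shGFP. Pdia3 (ERp57), which works on glycoproteins held by calnexin and calreticulin, had 1436 and 1458 CPM in Ell2-KD and 1728 and 1322 CPM in shGFP. The depleted libraries lay on either side of the controls for P4hb, and both inside the range of the controls for Pdia3. The log2 changes were -0.061 for P4hb (95% interval -0.48 to 0.36) and -0.076 for Pdia3 (-0.51 to 0.36). Pdia6 (P5), known to bind BiP and to act on IRE1, had 991 and 889 CPM in Ell2-KD and 1146 and 969 CPM in shGFP, a log2 change of -0.17 (-0.60 to 0.26). The intervals of Pdia6, Pdia3 and P4hb overlap that of Pdia4, and whether the genes differ from each other in their change was not tested.

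Erp44, which retrieves ERO1, PRDX4 and unassembled IgM subunits from the early secretory pathway, was the only 1 of the 10 with a positive log2 change. It had 351 and 280 CPM in Ell2-KD and 313 and 310 CPM in shGFP, so the depleted libraries lay on either side of the controls. The change was 0.018 ± 0.22 (SE), with a 95% interval of -0.47 to 0.50, and it was -0.15 without Ell2-KD replicate 1.

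Taken singly, Ero1l and Ero1lb showed no separation between the groups. Ero1l, the widely expressed ERO1 alpha, had 112 and 158 CPM in Ell2-KD and 158 and 156 CPM in shGFP, and only Ell2-KD replicate 1 stood apart. Ero1lb, the ERO1 beta best known from pancreas, had 43.3 and 38.9 CPM in Ell2-KD and 42.2 and 51.2 CPM in shGFP. With 611 and 133 counts in Ell2-KD, against 354 and 258 in shGFP, it was the least deeply counted of the 10. The log2 changes were -0.22 ± 0.27 for Ero1l and -0.18 ± 0.35 for Ero1lb (SE; edgeR adjusted p = 0.99 and above). Prdx4, the ER peroxiredoxin, had 470 and 454 CPM in Ell2-KD and 475 and 543 CPM in shGFP. Its groups did not overlap, but by a margin of about 1% of the level, and its log2 change was -0.14 ± 0.20 (SE).

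**Figure D2:**
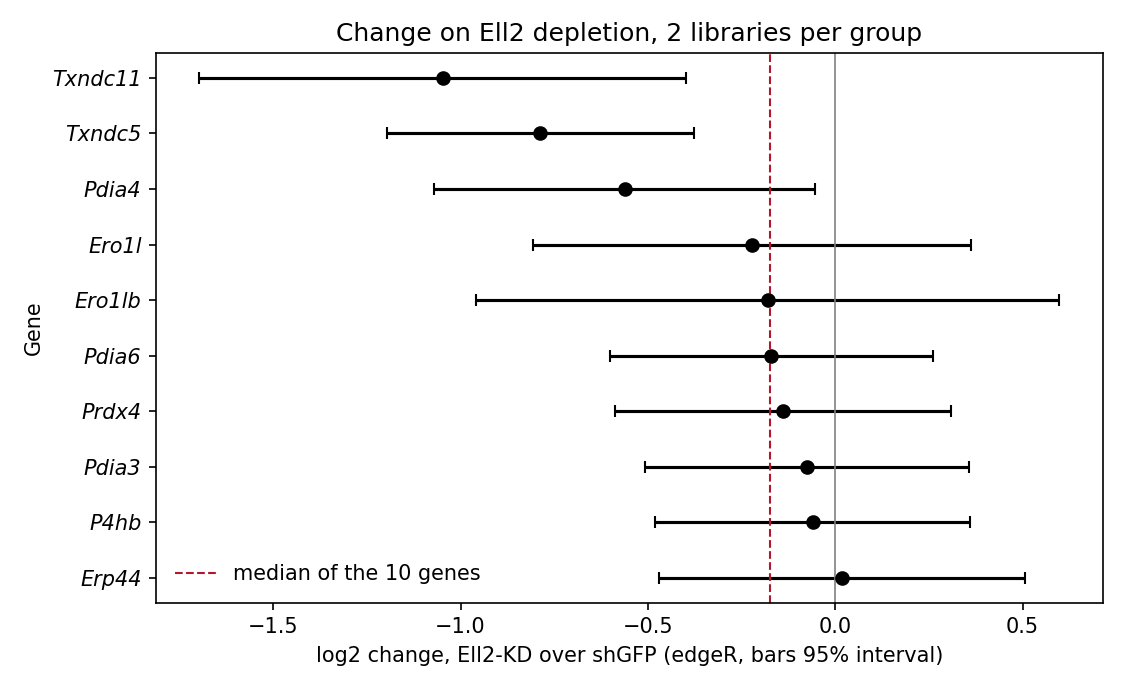
The edgeR log2 change of each gene (Ell2-KD over shGFP, points) with its 95% interval (bars), and the median of the 10 genes (dashed line, -0.18). The intervals of Txndc11, Txndc5 and Pdia4 lie below 0, and those of the other 7 genes include it.

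As a set, 9 of the 10 genes had a negative log2 change, where 50.1% of all tested genes did. The median was -0.18, against -0.0015 over all tested genes. With 1 library left out the median ranged from -0.24 to -0.11. In 4 of the 10 genes both depleted libraries lay below both controls, and in none above, where 18.5% of all tested genes lay below, 17.4% above and 35.8% either way. Together the 10 genes took 0.745% and 0.641% of all counts in Ell2-KD, against 0.944% and 0.856% in shGFP. Counting error alone is small here, with 95% Wilson intervals of 0.7402% to 0.7493%, 0.6331% to 0.6498%, 0.9372% to 0.9504% and 0.8483% to 0.8643% in the same order. The summed level averaged 6931 ± 730 CPM in Ell2-KD and 9000 ± 619 CPM in shGFP (SD, n = 2 each; exact permutation test over libraries, two-sided p = 0.3333, the smallest that 2 against 2 can give). Without Txndc5, the gene with the highest mean CPM, the difference was -1179 CPM, against -2069 CPM with it.

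Counts grow with transcript length, so levels were compared between genes per kilobase of exon. On that scale (CPM per kb), Pdia4 had the highest group means, with 473 ± 118 in Ell2-KD and 699 ± 151 in shGFP (SD, n = 2 each). Pdia3 came next by group mean, with 461 ± 4.93 in Ell2-KD and 486 ± 91.4 in shGFP. In Ell2-KD replicate 2, however, Pdia3 (464) stood above Pdia4 (390), and in shGFP replicate 2 Txndc5 (468) stood above Pdia3 (421). P4hb had 338 ± 34.3 in Ell2-KD (rank 3) and 353 ± 0.74 in shGFP (rank 4). Txndc5 had 272 ± 36.4 CPM per kb in Ell2-KD (rank 4) and 470 ± 3.96 in shGFP (rank 3). On this scale Txndc5 thus stood below P4hb in both depleted libraries and above P4hb in both controls. In CPM not divided by length, Txndc5 stood above P4hb in every library. The switch in order therefore rests on the exon lengths used, 4.492 kb for Txndc5 and 2.861 kb for P4hb.

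The lower ranks did not change. Pdia6 (251 ± 19.4 CPM per kb in Ell2-KD, 282 ± 33.4 in shGFP), Prdx4 (219 ± 5.24 and 242 ± 22.7), Erp44 (92.2 ± 14.7 and 91.1 ± 0.67), Txndc11 (33.0 ± 8.87 and 68.1 ± 26.1), Ero1l (25.6 ± 6.07 and 29.8 ± 0.23) and Ero1lb (6.18 ± 0.47 and 7.02 ± 0.95) held the same order in every library. In Ell2-KD the ranges overlapped between Pdia4 and Pdia3, Txndc5 and Pdia6, and Txndc11 and Ero1l. In shGFP they overlapped only between Pdia3 and Txndc5. Ero1lb was thus the scarcest of the 10 per length, and Ero1l lay near Txndc11 in Ell2-KD.

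The share of Txndc5 in the set was examined after its values were seen, so it is a description. Txndc5 made up 12.9% and 12.2% of the summed per-length level in Ell2-KD, against 16.4% and 18.2% in shGFP. The ratio of Txndc5 to P4hb per length was 0.823 and 0.786 in Ell2-KD, against 1.34 and 1.32 in shGFP (exact permutation test, p = 0.3333, the smallest possible). The summed ERO1 oxidases had 27.8 and 35.7 CPM per kb in Ell2-KD and 36.3 and 37.3 in shGFP, without overlap (exact permutation test, p = 0.3333). The ratio of the summed PDI family to the summed ERO1 oxidases overlapped between groups, at 74.4 and 49.7 in Ell2-KD and 72.5 and 60.9 in shGFP. The ratio of Prdx4 to the ERO1 oxidases also overlapped, at 8.03 and 6.04 in Ell2-KD and 6.22 and 6.91 in shGFP.

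**Figure D3:**
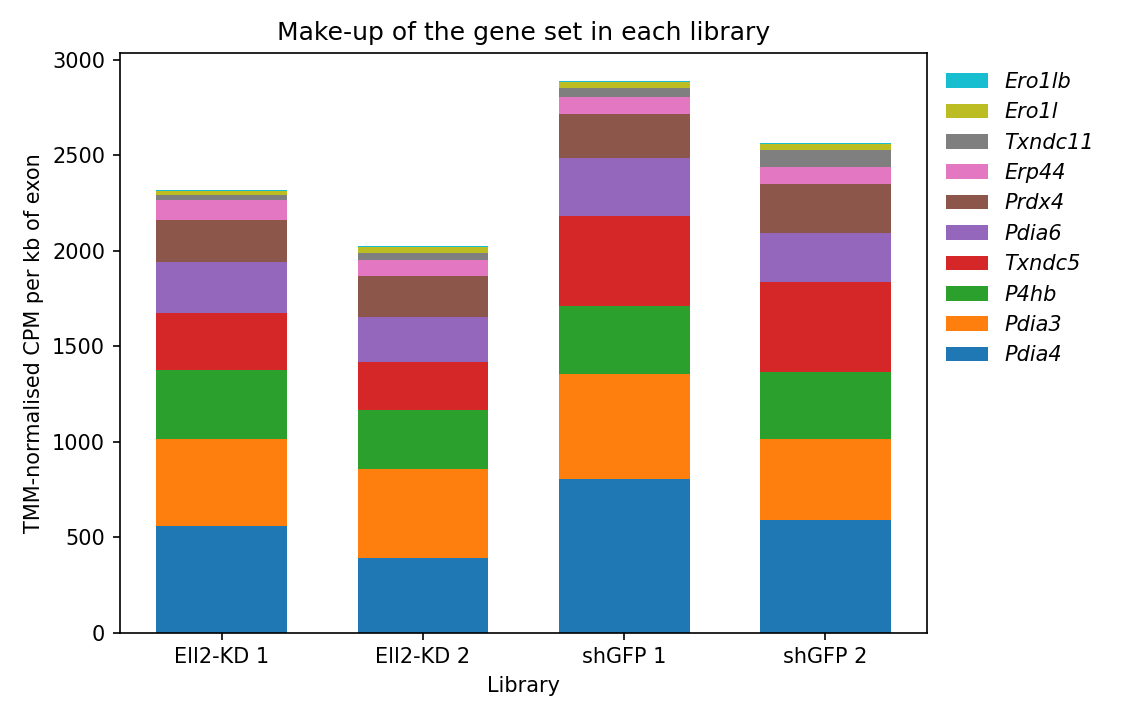
Stacked levels of the 10 genes in each library, in TMM-normalised CPM per kb of exon. The stacks sum to 2319 and 2025 in Ell2-KD replicates 1 and 2 and to 2891 and 2565 in shGFP replicates 1 and 2. The Txndc5 and Pdia4 segments are smaller in both Ell2-KD stacks.

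Across all tested genes with a mean of at least 100 CPM, the 3 whose pattern over the 4 libraries lay nearest to that of Txndc5 were Mgat2, an N-glycan transferase of the Golgi, Enpp1, a nucleotide pyrophosphatase of the cell surface, and Rasa3, a GTPase-activating protein of Ras. Likeness was the Euclidean distance between centred log2 CPM profiles, and it was 0.076, 0.090 and 0.13 among 2595 genes compared. Mgat2 had 112 and 88.7 CPM in Ell2-KD and 170 and 164 CPM in shGFP. With 4 libraries, many genes can share such a profile.

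Other PDI family genes went in both directions. Of 14 listed, 9 were tested, with 5 negative and 4 positive log2 changes and a median of -0.26. None passed in edgeR, with 3 at an unadjusted p under 0.05, where 5.82% of all genes were. DESeq2 also called 0, with 3 at an unadjusted p under 0.05, where 6.25% of all genes were. Dnajc10 (ERdj5), a reductase that opens disulfides before ER-associated degradation, had 270 and 206 CPM in Ell2-KD and 419 and 310 CPM in shGFP. Tmx4, a transmembrane thioredoxin-related protein, had 58.9 and 72.9 CPM in Ell2-KD and 41.1 and 34.9 CPM in shGFP. The log2 changes were -0.61 ± 0.25 for Dnajc10 and 0.79 ± 0.34 for Tmx4 (SE; edgeR adjusted p = 0.81 and 0.83), and without shGFP replicate 1 that of Dnajc10 was -0.37. Pdia5, also at an unadjusted p under 0.05, had 24.5 and 12.3 CPM in Ell2-KD and 42.6 and 34.7 CPM in shGFP. Its log2 change was the lowest of the list, at -1.05 ± 0.47 (SE; edgeR adjusted p = 0.84). Both depleted libraries lay below both controls in 4 of the 9 and above in 2 (18.5% and 17.4% of all tested genes). The PDI family members of other tissues Pdia2, Pdilt, Erp27, Agr2 and Agr3 had 0 or 1 count in every library.

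The other thiol oxidants and reductants of the ER did not pass either. Of 12 listed, 11 were in the files and 8 were tested, with 5 negative and 3 positive changes and a median of -0.27. In edgeR 0 were past the threshold and 0 at an unadjusted p under 0.05, where 5.82% of all genes were. DESeq2 gave the same, where 6.25% were. The ER peroxidases Gpx7 and Gpx8 had 0 or 1 count in every library, against at least 454 CPM of Prdx4. The selenoprotein Selm had 11.1 and 16.4 CPM in Ell2-KD and 14.8 and 40.3 CPM in shGFP. Sep15, a selenoprotein that binds the glycoprotein folding sensor UGGT, had 383 and 252 CPM in Ell2-KD and 431 and 384 CPM in shGFP.

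Among partners and clients of the 10 genes negative log2 changes were more frequent than positive ones. Of 22 listed, 20 were tested, with 16 negative and 4 positive changes and a median of -0.25. In 7 both depleted libraries lay below both controls (18.5% of all tested genes), and in 1 above (17.4%). The 7 include Igj and 2010001M09Rik (Mzb1), which were also counted among the plasma cell markers. None passed in edgeR, with 0 at an unadjusted p under 0.05, where 5.82% of all genes were. DESeq2 gave the same, where 6.25% were. The lectins that present glycoproteins to PDIA3 overlapped between the groups. Canx had 1196 and 1083 CPM in Ell2-KD and 1191 and 1005 CPM in shGFP, and Calr had 836 and 1135 CPM in Ell2-KD and 1051 and 1101 CPM in shGFP. BiP (Hspa5), which meets PDIA4 and PDIA6 in chaperone complexes, had 3554 and 3678 CPM in Ell2-KD and 4373 and 4171 CPM in shGFP, a log2 change of -0.24 ± 0.16 (SE).

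GRP94 (Hsp90b1) had 6463 and 5117 CPM in Ell2-KD and 8991 and 6232 CPM in shGFP, and the groups overlapped. Lman1, the cargo lectin that cycles with ERP44, had 441 and 484 CPM in Ell2-KD and 471 and 635 CPM in shGFP. Its cofactor Mcfd2 had 71.7 and 61.5 CPM in Ell2-KD and 118 and 87.5 CPM in shGFP. The prolyl isomerase Ppib had 386 and 334 CPM in Ell2-KD and 413 and 615 CPM in shGFP. P4ha1, the catalytic partner of P4HB in prolyl 4-hydroxylase, had 125 and 62.9 CPM in Ell2-KD and 137 and 121 CPM in shGFP, so only Ell2-KD replicate 2 stood apart.

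In the 2 lists of redox genes taken as outside the ER positive log2 changes were the more frequent, without a call in edgeR. Among 10 peroxide enzymes taken as outside the ER, 7 changes were positive and 3 negative (median 0.16). Among 14 tested of 15 genes of the thioredoxin and glutathione systems, 9 were positive and 5 negative, with a median of 0.35. None of either list passed in edgeR (0 and 3 at an unadjusted p under 0.05, where 5.82% of all genes were). Of these 3, Hmox1 and Slc7a11 were lower in Ell2-KD and Txnrd1 was higher (3.26% and 2.57% of all genes). Slc7a11 had 47.0 and 23.7 CPM in Ell2-KD and 63.2 and 72.4 CPM in shGFP, a log2 change of -0.92. DESeq2 called only Hmox1, against 0.443% of all genes (0 and 3 at an unadjusted p under 0.05, where 6.25% of all genes were). Gpx4, which reduces lipid peroxides, had 24.0 and 24.9 CPM in Ell2-KD and 7.99 and 14.3 CPM in shGFP. Catalase (Cat) had 60.5 and 126 CPM in Ell2-KD and 49.5 and 58.3 CPM in shGFP.

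Txnrd1, the cytosolic thioredoxin reductase, had 643 and 890 CPM in Ell2-KD and 413 and 492 CPM in shGFP, with both depleted libraries above both controls. Its log2 change was 0.76 ± 0.23 (SE; edgeR adjusted p = 0.60). Hmox1, the stress-inducible haem oxygenase of the ER membrane, was counted in the thioredoxin and glutathione list but belongs to neither system. It had 20 and 1 counts in Ell2-KD and 116 and 76 in shGFP. Its log2 change was -3.87 ± 0.95 (SE; edgeR adjusted p = 0.47), and DESeq2 gave -3.89 with an adjusted p of 0.019. Over the alternatives in which it was tested the adjusted p ran from 0.019 to 1.00, and with 1 library left out the log2 change ranged from -5.52 to -3.34.

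The list of sensors and factors of the unfolded protein response also held Nfe2l2 and Hif1a, better known from oxidative stress and hypoxia. Their log2 changes were -0.20 and 0.038. Of the list 9 of 9 were tested, with 5 negative and 4 positive changes and a median of -0.052. None passed in edgeR, with 2 at an unadjusted p under 0.05, where 5.82% of all genes were. DESeq2 also gave 0 and 2, where 6.25% were. Those 2 were paralogs with opposite signs. Atf6, the stress-activated transcription factor, had 288 and 288 CPM in Ell2-KD and 432 and 470 CPM in shGFP, which is -0.65 ± 0.21 on the log2 scale (SE; edgeR adjusted p = 0.67). Atf6b had 266 and 133 CPM in Ell2-KD and 115 and 96.6 CPM in shGFP, which is 0.92 ± 0.33 on the log2 scale (SE; edgeR adjusted p = 0.75), and 0.34 without Ell2-KD replicate 1.

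**Figure D4:**
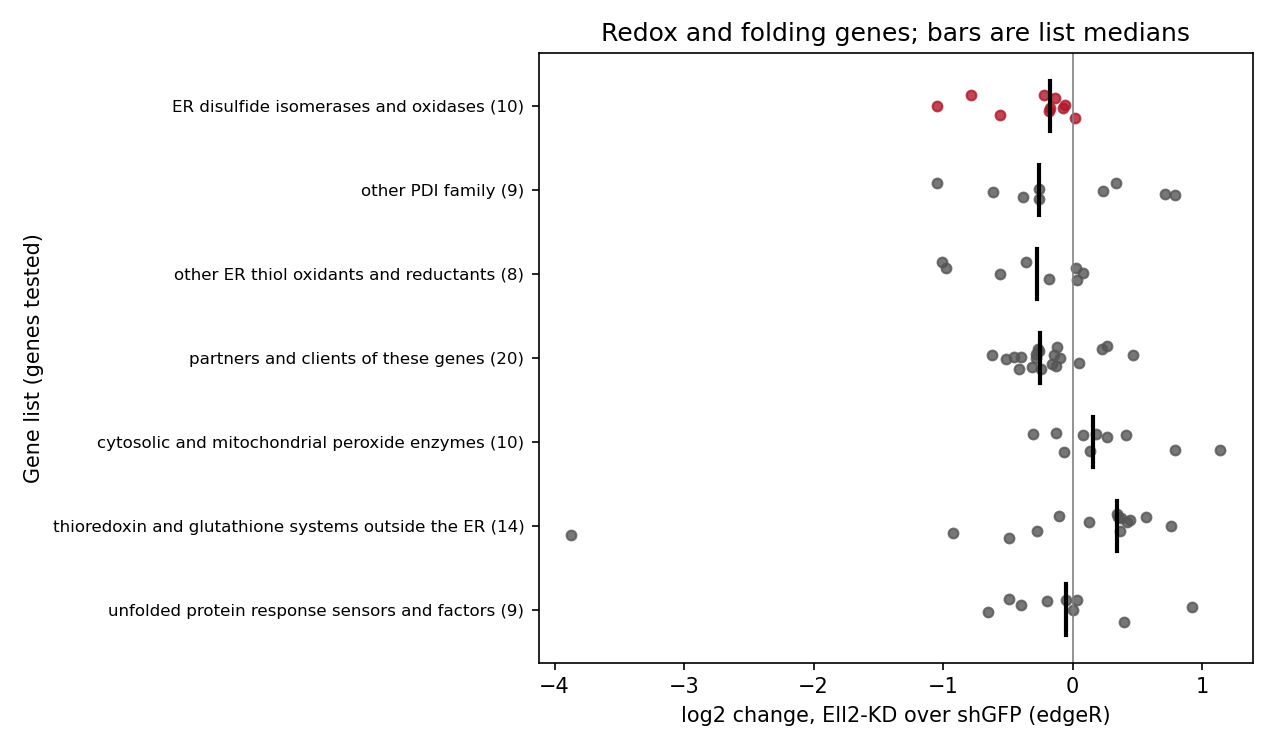
The edgeR log2 change (Ell2-KD over shGFP) of each tested gene in 7 lists, with vertical bars at the list medians. The medians of the ER lists lie between -0.27 and -0.18. That of the unfolded protein response list, which also holds Nfe2l2 and Hif1a, is -0.052. Those of the 2 redox lists taken as outside the ER, which include Hmox1, are 0.16 and 0.35.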

How the data were processed

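Total RNA of 4 MPC11 cultures, 2 Ell2-KD and 2 shGFP, was read by SOLiD RNA-seq, per the labels' protocols. Each library has a table in which the authors deposited raw read counts per gene symbol, per the file headers. HTSeq 0.5.3, SAMtools 0.1.11, DESeq 1.4.1 and, as the build, mm9 are named in the submitters' processing notes. Which aligner, annotation, strand setting and read filters were used is not given in the sources used here. Reads of a gene and of an overlapping partner could therefore not be told apart. Besides Txndc5 and Txndc11, exons of Pdia3, Pdia4 and Pdia6 overlap those of another gene in GENCODE M21, by 18, 14 and 50 bases.

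The test was that of edgeR 4.0.16 under R 4.3.3. The filter was filterByExpr (at least 10 counts, at least 15 in total), libraries were scaled by TMM, and the quasi-likelihood test (robust, two-sided) had group as its only term. The Benjamini-Hochberg adjustment covered the 11027 genes that were tested, and 0.05 was the threshold. SE is the log2 change divided by the square root of F, and 95% intervals use the total degrees of freedom of the fit. Levels per length divide TMM-normalised CPM by the merged exon length in GENCODE M21. That annotation is of build GRCm38, so the lengths may differ from those the authors counted over. Promoter windows are from RefSeq, build GRCm38.p6, matched by symbol for 10 of 10 genes. Sums and ratios were compared by an exact permutation test over libraries (scipy 1.17.1). The fit was first tested on simulated data.

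The genes and lists were chosen with earlier results of these data known. Besides the 10 genes and Ell2, the text names from each list any gene past the threshold, or else the 2 with the smallest p, and 6 binding partners. It also names the 3 genes nearest to Txndc5. Named outside this rule, with their values seen, are cell type markers, list genes too low to test and genes that overlap Txndc5 or Txndc11. So are Pdia5, Slc7a11, Nfe2l2 and Hif1a. The alternatives were other scalings, filters, DESeq2 1.42.0, a replicate block and each library left out.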

Additional observations from a re-analysis of the deposited data

How the results depend on the processing

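The number of genes past the threshold was 5, and it was 2 with library totals and no further scaling, 22 with no filter on low counts, 46 with the DESeq2 Wald test and 1 to 6 with 1 library left out. The replicate numbers are not known to pair the libraries, although same-numbered libraries deviated together over genes (correlation 0.31). With the replicate number as a block, 28 genes passed, and 1 of the 10 genes, Txndc11, did (log2 change -1.02, edgeR adjusted p = 0.033; over its alternatives 0.033 to 1.00). In every other alternative 0 of the 10 passed, and the cause of the difference under the block was not tested. The median of the 10 genes ranged from -0.24 to -0.11 with 1 library left out, against -0.18. The difference in summed level ranged from -2586 to -1553 CPM with 1 library left out. Txndc11, Txndc5 and Pdia4 stayed negative in all 10 alternatives, with Txndc5 between -0.93 and -0.66. Small changes turned sign with 1 library left out: P4hb ranged from -0.16 to 0.039, Pdia3 from -0.26 to 0.14, Ero1l from -0.48 to 0.011, Erp44 from -0.15 to 0.17, Canx from -0.064 to 0.19 and Calr from -0.36 to 0.083. Others moved by more than 1.5 times without turning. Of the 10 genes, Txndc11 ranged from -1.38 to -0.59, Pdia4 from -0.84 to -0.31 and Pdia6 from -0.29 to -0.033. Ero1lb ranged from -0.30 to -0.035 and Prdx4 from -0.22 to -0.040. Of the other genes, Selm ranged from -1.55 to -0.12, Sep15 from -0.69 to -0.089, Ppib from -0.76 to -0.20 and Mcfd2 from -0.82 to -0.38. Hsp90b1 ranged from -0.63 to -0.095, Lman1 from -0.44 to -0.026, P4ha1 from -1.03 to -0.045 and Cat from 0.17 to 1.24. Dnajc10 ranged from -0.82 to -0.37 and Atf6b from 0.34 to 1.33. Each group has 2 libraries, and intervals of single shares cover counting error only.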
